A study of Mus musculus with 6 samples.

Results

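The collecting duct principal cell genes examined here were *Aqp2*, *Aqp3*, *Aqp4*, *Scnn1a*, *Scnn1b*, *Scnn1g*, *Fxyd4*, *Hsd11b2*, *Gata3* and *Tfcp2l1*. They were chosen by name, and all 10 were found among the 23276 gene symbols of the deposited transcript table, where they took up 30 of 54721 transcript entries. The table came from total kidney RNA of 6 mice at postnatal day 22. In 3 mice, the *Pkd1* F/RC SKO group, KspCre acted on a *Pkd1* F/RC background, in which 1 *Pkd1* allele is flanked by loxP sites and the other carries the hypomorphic RC mutation. The other 3 mice, the *Pkd1* F/RC DKO group, had the same alleles together with miR17~92 F/F, the floxed miR-17~92 microRNA cluster. KspCre is a Cre recombinase expressed in renal tubule epithelium, so interstitial, vascular and glomerular cells are not its targets. The deletion of the cluster could not be checked here. No kidney without KspCre and *Pkd1* F/RC was among the samples. The only column used gives, for each transcript, the authors' mean over libraries of log2 CPM, where CPM is the read count relative to the size of the library. Neither single kidneys nor the genotype groups have a level of their own in it. The levels below therefore describe both genotypes pooled, without a spread, and no test between genotypes was made.

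Principal cells line the collecting duct, the last part of the renal tubule, where the final volume and salt content of urine are set. Vasopressin acts on its V2 receptor and, through cyclic AMP, brings the water channel aquaporin-2 to the apical membrane, and water leaves the cell through aquaporin-3 and aquaporin-4 at the basolateral side. Aldosterone acts on the mineralocorticoid receptor and raises sodium entry through the epithelial sodium channel ENaC, while the sodium pump moves the sodium on into the blood. The enzyme encoded by *Hsd11b2* inactivates glucocorticoids and so keeps the mineralocorticoid receptor for aldosterone. Collecting ducts are a known site of cyst formation in polycystic kidney disease.

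All 10 genes were expressed well above the low end of the table. When each gene was represented by its entry with the highest mean, the levels ran from 18.4 CPM for *Fxyd4* to 285 CPM for *Tfcp2l1*, a 15.5-fold range with a median of 70.3 CPM. A mean level of 1 CPM or more was reached by 13001 genes, whose median was 12.6 CPM, and all 10 principal cell genes lay above it. *Tfcp2l1* had only 98 of these genes above it, whereas *Fxyd4* lay above 62.0% of them. Since the RNA came from whole kidney, a low level can reflect few expressing cells or little RNA in each cell, and these cannot be told apart. The spread between kidneys is unknown, so the order of neighbouring levels is given without saying whether they differ.

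**Figure D1:**
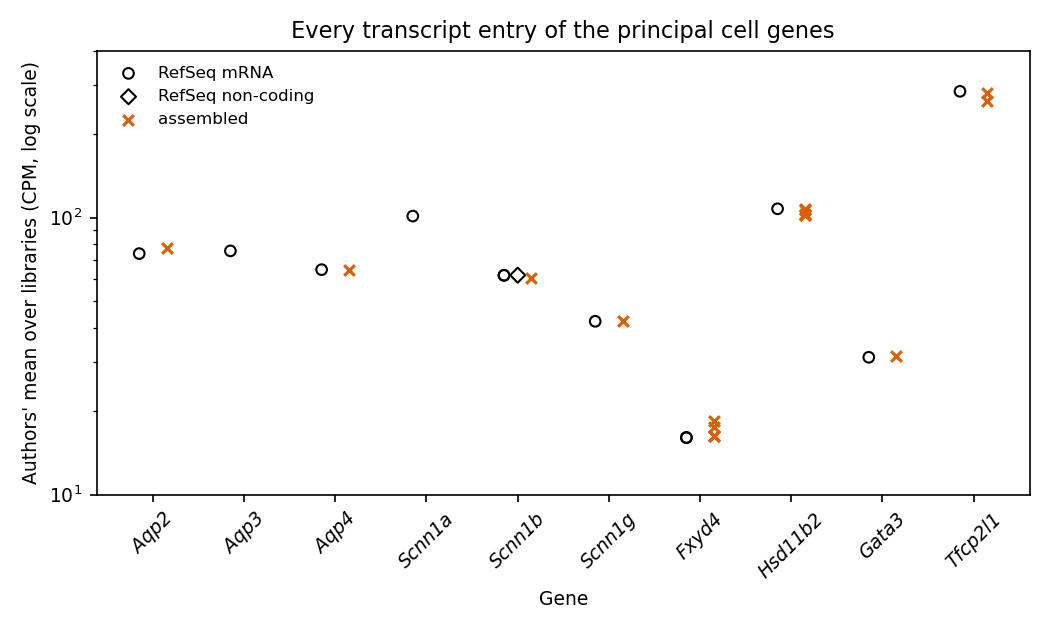
Mean level over libraries in CPM (log axis) of all 30 transcript entries of the 10 principal cell genes, with circles for RefSeq mRNAs, the diamond for the RefSeq non-coding entry and crosses for transcripts assembled from the reads. Entries of a gene lie within 1.15-fold of each other, while the genes spread from 18.4 CPM for *Fxyd4* to 285 CPM for *Tfcp2l1*.

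The different entries of a gene carried almost the same level. Of the 30 entries, 12 were RefSeq mRNAs, 1 was a RefSeq non-coding RNA and 17 had been assembled from the reads. In 8 genes there were several entries, and *Aqp3* and *Scnn1a* had 1 each. The widest spread was that of *Fxyd4*, whose 7 entries ranged from 16.03 to 18.4 CPM, a ratio of 1.15. The 6 entries of *Hsd11b2* ranged from 102 to 108 CPM. *Scnn1b* had 4 entries between 60.6 and 61.9 CPM, of which both RefSeq mRNAs had the same value of 61.9 CPM and the non-coding entry the highest. Such closeness was common in the table, since 8470 genes with at least 1 CPM had several entries and their median ratio of highest to lowest was 1.12. The sources used here do not say whether a read that lies in several transcripts was counted for each or shared among them. If reads were shared, the level of a gene would be the sum over its entries. That sum was 832 CPM for *Tfcp2l1*, 628 CPM for *Hsd11b2* and 117 CPM for *Fxyd4*, and unchanged for *Aqp3* and *Scnn1a*, so that *Aqp3* moved from rank 5 to rank 9 of the 10 genes.

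A longer transcript gives more reads at the same number of molecules, so levels were also divided by transcript length. For this the RefSeq mRNA entry with the highest mean was used, with its exonic length taken from GENCODE for GRCm38 (mm10). The lengths ran from 550 bases for *Fxyd4* to 9269 bases for *Tfcp2l1*. The 3′-UTR, the part after the stop codon, made up 7734 of these bases in *Tfcp2l1* and 3955 of 5054 in *Aqp4*. Whether the kidney transcripts have the annotated lengths was not tested, and the per-kilobase levels depend on them. On the per-kilobase scale the genes ranged from 9.74 CPM per kilobase for *Gata3* to 58.4 CPM per kilobase for *Hsd11b2*, a 6.0-fold range. Their median was 29.1 CPM per kilobase, beside 4.06 CPM per kilobase over the 12499 genes that had at least 1 CPM and a matched length. The rank of 8 of the 10 genes changed between the CPM and the per-kilobase scale. *Tfcp2l1* went from the highest to the fourth place, and *Fxyd4* from the lowest to the fifth.

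**Figure D2:**
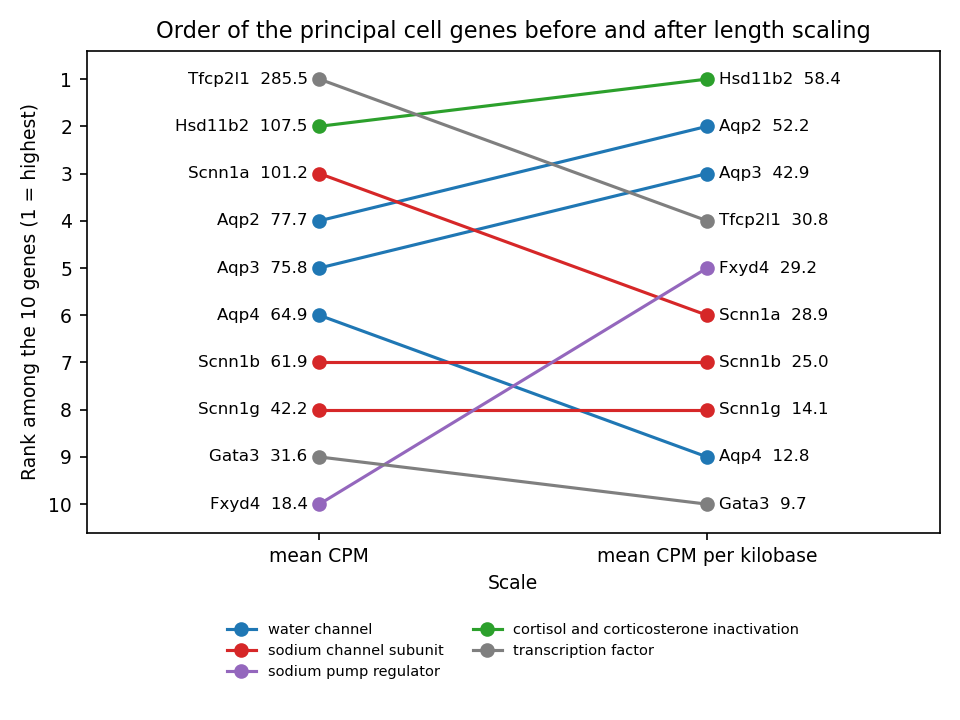
Rank of each principal cell gene (1 is the highest) by mean CPM of its highest entry on the left and by mean CPM per kilobase of its RefSeq mRNA on the right, with the level beside each name and lines coloured by role. *Hsd11b2* (58.4), *Aqp2* (52.2) and *Aqp3* (42.9) lead on the per-kilobase scale, and *Scnn1b* and *Scnn1g* alone keep their rank.

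Among the water channels, the highest entries of the 3 genes were close in CPM and far apart per kilobase. *Aqp2*, the vasopressin-regulated channel of the apical membrane, lies on chromosome 15 of mm10 (99579055 to 99584547, forward strand) and had 2 entries at 74.1 and 77.7 CPM. *Aqp3*, a basolateral channel that also passes glycerol, had a single entry at 75.8 CPM, on the reverse strand of chromosome 4 (41092722 to 41098183). *Aqp4*, a basolateral channel also abundant in brain astrocytes, had 2 entries at 64.8 and 64.9 CPM, on the reverse strand of chromosome 18 (15389496 to 15410982). The highest and lowest of the 3 differed by 1.20-fold in CPM. Summed over entries they were 152 CPM for *Aqp2*, 130 CPM for *Aqp4* and 75.8 CPM for *Aqp3*, a 2.0-fold range in which *Aqp4* lay above *Aqp3*. Divided by length, *Aqp2* stood at 52.2, *Aqp3* at 42.9 and *Aqp4* at 12.8 CPM per kilobase, a 4.07-fold range, with transcripts of 1419 bases for *Aqp2* and 5054 bases for *Aqp4*. *Gfap*, a marker of astrocytes, was listed at 0.198 CPM. That value does not tell which kidney cells gave the *Aqp4* reads, and their source was not tested.

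The subunits of ENaC kept the same order in CPM of the highest entry and per kilobase, but not when entries were summed. *Scnn1a*, which encodes the alpha subunit, had its only entry at 101 CPM, on the forward strand of chromosome 6 (125320659 to 125344943), and lay above 95.5% of the genes with at least 1 CPM. *Scnn1b* and *Scnn1g*, for the beta and gamma subunits, stood at 61.9 and 42.2 CPM, and they are neighbours on the forward strand of chromosome 7 (121865038 to 121918514 and 121734479 to 121768475). Per kilobase the levels were 28.9, 24.96 and 14.1 for *Scnn1a*, *Scnn1b* and *Scnn1g*. The alpha subunit RNA was thus 1.16 times that of beta and 2.05 times that of gamma on the per-kilobase scale, and 1.63 and 2.40 times in CPM of the highest entry. With summed entries *Scnn1b*, at 246 CPM, lay above *Scnn1a* at 101 CPM and *Scnn1g* at 84.4 CPM, so that alpha was 0.411 times beta and 1.20 times gamma.

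*Hsd11b2* had the highest per-kilobase level of all 10 genes. Its RefSeq entry, on chromosome 8 from 105518755 to 105523988, was at 108 CPM, and 531 genes of the table lay above it. The per-kilobase level of 58.4 was 2.02 times that of *Scnn1a* and 2.0 times that of *Fxyd4*. In CPM of the highest entry these ratios were 1.06 and 5.84, and with summed entries 6.21 and 5.37. *Fxyd4* encodes a small membrane protein, also known as CHIF, that associates with the sodium pump and raises its affinity for sodium. The gene lies on the reverse strand of chromosome 6 (117933559 to 117937692). It was the lowest of the 10 in CPM of the highest entry and the sixth when entries were summed, and at 29.2 CPM per kilobase it lay above 92.8% of genes once its 550-base transcript was taken into account.

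The transcription factors differed more in CPM, by highest entry or by summed entries, than per kilobase. *Tfcp2l1*, a factor of the CP2 and grainyhead family needed for collecting duct cell identity, had 3 entries between 264 and 285 CPM and lies on the forward strand of chromosome 1 (118627945 to 118685168). *Gata3*, which is required for development of the ureteric bud and the collecting ducts, had 2 entries at 31.3 and 31.6 CPM and lies on the reverse strand of chromosome 2 (9857078 to 9890034). *Tfcp2l1* was 9.03 times *Gata3* in CPM (13.2 times with summed entries) and 3.16 times per kilobase, at 30.8 against 9.74. These are the only members whose transcript shares bases with another annotated gene. In *Tfcp2l1*, 130 bases overlap *Gm23497*, a small nuclear RNA gene on the same strand, and in *Gata3*, 155 bases overlap the antisense gene *Gm13256*. The libraries were strand-specific, but whether strand was used in counting is not given in the sources used here.

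Set beside the other genes of their families, the principal cell genes were the highest in the ENaC, GATA and CP2 families, but not among aquaporins and FXYD genes. Of 12 aquaporins, 7 had at least 1 CPM. The highest was *Aqp1*, the channel of the proximal tubule and thin descending limb, at 332 CPM and 127 CPM per kilobase. The lowest were *Mip* and *Aqp12* at 0.0263 CPM, which is the lowest value in the table. That value is shared by 4617 entries and is not read as a measured level. *Aqp6*, a channel of intercalated cells, at 18.7 CPM per kilobase, lay below *Aqp3* and above *Aqp4*. In CPM of the highest entry, at 45.6 CPM, it was below *Aqp2*, *Aqp3* and *Aqp4*. With summed entries, at 93.0 CPM, it was above *Aqp3* and below *Aqp4*. In the sodium channel family the ENaC subunits were the 3 genes above 1 CPM, and the acid-sensing channels *Asic1* to *Asic5* were listed between 0.0467 CPM for *Asic5* and 0.855 CPM for *Asic1*. Among 7 FXYD genes, 6 had at least 1 CPM, and *Fxyd2*, the gamma subunit of the sodium pump, at 488 CPM stood far above *Fxyd4*.

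*Hsd11b1*, whose product mainly regenerates active glucocorticoid, was listed at 23.1 CPM and 17.0 CPM per kilobase, below *Hsd11b2* on both scales. *H6pd*, which supplies that enzyme with NADPH, was at 112 CPM and 21.5 CPM per kilobase. *Gata3* was the highest of 6 GATA genes, followed by *Gata2* at 19.5 CPM, *Gata6* at 1.70 CPM and *Gata5* at 0.503 CPM. *Gata1*, at 0.0396 CPM, and *Gata4*, at 0.0322 CPM, were close to the lowest value in the table. In the CP2 and grainyhead family *Tfcp2l1* was followed by *Ubp1* at 39.6 CPM, *Grhl2* at 12.01 CPM, *Tfcp2* at 10.59 CPM, *Grhl1* at 2.01 CPM and *Grhl3* at 1.34 CPM.

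**Figure D3:**
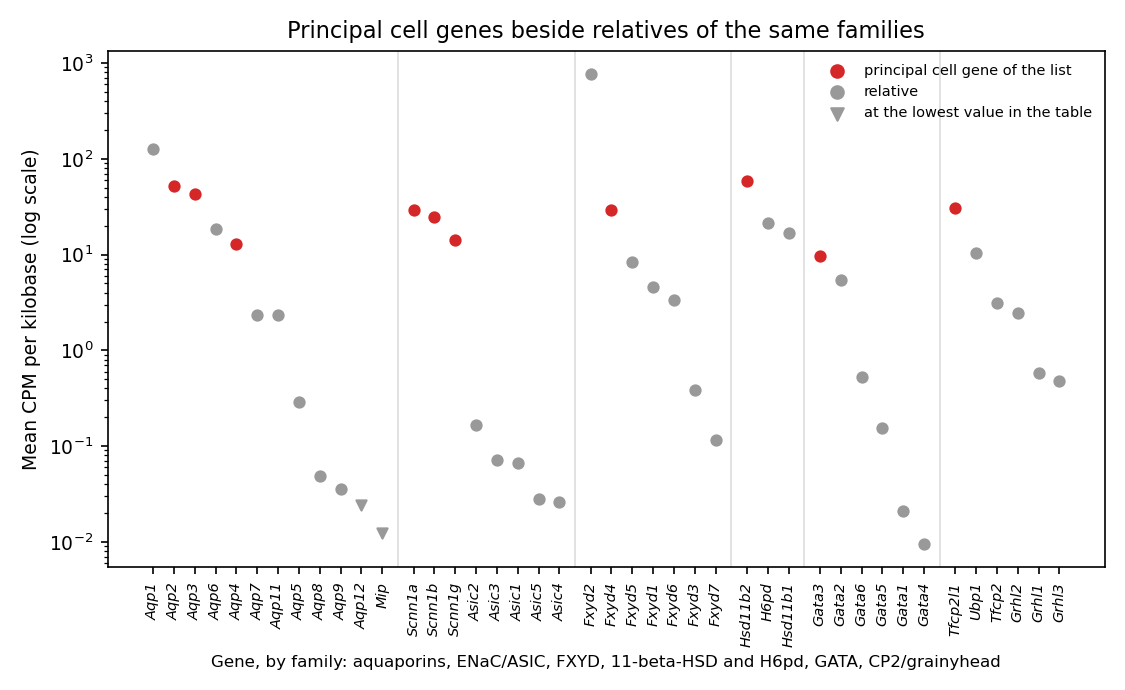
Mean CPM per kilobase (log axis) of every gene in 6 families, ordered from high to low within each family, with the principal cell genes in red, relatives in grey and triangles for genes at the lowest value in the table. *Aqp1*, *Aqp6* (above *Aqp4*) and *Fxyd2* are the relatives that lie above a principal cell gene of their family.

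Genes listed for the hormone pathways of principal cells were also found in the whole kidney RNA. Since 13001 of all 23276 gene symbols reached 1 CPM, the counts below do not place these pathways in principal cells. All 11 genes listed for vasopressin and cyclic AMP had at least 1 CPM, from *Adcy3*, an adenylyl cyclase, at 2.50 CPM to *Gnas*, the stimulatory G protein alpha subunit, at 200.4 CPM. All 11 genes listed for control of ENaC by aldosterone also had at least 1 CPM. The lowest of them was *Nr3c2*, the mineralocorticoid receptor itself, at 11.99 CPM. The highest in CPM was *Wnk1*, a kinase that controls ion transport, at 274 CPM. Divided by length, *Wnk1* stood at 25.9 CPM per kilobase and was not the highest of the 11. All 6 genes listed for the exit of sodium and potassium had at least 1 CPM. The large-conductance potassium channel gene *Kcnma1* was the lowest, at 1.94 CPM for its highest entry. Its 31 entries summed to 45.3 CPM, beside 49.4 CPM for the only entry of *Kcnj10*. By highest entry, *Kcnj1* (ROMK) was at 206 CPM, *Kcnj16* at 302 CPM and the pump subunit *Atp1b1* at 1285 CPM. Several of these genes, *Atp1b1* and *Kcnj1* among them, are also expressed in other tubule segments.

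Markers of cell types were listed beside the gene group. All 12 principal cell markers, the 10 genes with *Avpr2* and *Elf5*, had at least 1 CPM. Of all 23276 gene symbols, 13001 reached that level, and 10 of the 12 markers are the genes under study. The count therefore does not check the label of the group. *Avpr2*, the V2 receptor, was at 14.1 CPM and *Elf5*, a principal cell transcription factor, at 11.6 CPM. Whole kidney RNA also held the other cell types. The 6 intercalated cell markers ranged from 17.7 CPM for *Slc26a4* to 82.6 CPM for *Atp6v1b1*, with a median of 32.5 CPM. The other 4 of them were *Atp6v1g3* at 41.0 CPM, *Atp6v0d2* at 35.5 CPM, *Foxi1* at 29.6 CPM and *Slc4a1* at 23.1 CPM. The proximal tubule markers *Slc34a1* and *Lrp2* stood at 1030.2 and 567 CPM. The thick ascending limb markers *Umod* and *Slc12a1* stood at 1022 and 618 CPM. In CPM each of these was above all 10 genes. Per kilobase, *Slc34a1* at 423, *Umod* at 374 and *Slc12a1* at 132 CPM were still above all 10 genes. *Lrp2*, at 36.7 CPM per kilobase, was below *Hsd11b2* (58.4), *Aqp2* (52.2) and *Aqp3* (42.9). *Slc5a2* of the proximal tubule, at 108 CPM, was below *Tfcp2l1* in CPM. Per kilobase it was above *Tfcp2l1*, at 47.5 against 30.8 CPM. The distal convoluted tubule markers were split, with *Slc12a3* at 169 CPM and *Pvalb* at 3.14 CPM. The podocyte marker *Nphs1* was at 13.0 CPM, and the endothelial markers *Pecam1* and *Kdr* at 52.7 and 27.0 CPM. *Cd68* and *Emr1* of macrophages were at 5.19 and 4.49 CPM, and *Cd3d* and *Cd3e* of T cells, a further cell type that uses *Gata3*, at 0.253 and 0.160 CPM. How much of the RNA of each principal cell gene came from other cells was not tested.

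Because the cluster floxed in DKO mice encodes microRNAs, which bind 3′-UTRs through their seed (bases 2 to 8, in capitals), the 3′-UTRs of the 10 genes were searched for matches. The mature sequences, from RefSeq on GRCm38.p6, lie on the forward strand of chromosome 14 between 115043684 and 115044496. The 6 microRNAs have 4 seeds, since miR-17-5p shares its seed with miR-20a-5p and miR-19a-3p with miR-19b-3p.
miR-17-5p: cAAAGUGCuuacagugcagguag
miR-20a-5p: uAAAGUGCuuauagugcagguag
miR-18a-5p: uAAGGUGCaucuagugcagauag
miR-19a-3p: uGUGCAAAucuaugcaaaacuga
miR-19b-3p: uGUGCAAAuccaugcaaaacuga
miR-92a-3p: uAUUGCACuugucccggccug

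None of the 10 genes held a 7-base match to the seed of miR-17 and miR-20a (GCACTTT, searched on the transcript strand), which 13.7% of 12472 genes with at least 1 CPM and an annotated 3′-UTR held. Matches to any of the 4 seeds were present in 2 of the 10 genes, beside 31.4% of all these genes. The 3′-UTRs of the 10 genes were somewhat shorter, with a median of 834 bases against 1025 bases, and ranged from 169 bases in *Fxyd4* to 7734 bases in *Tfcp2l1*. *Scnn1a* held a single match to the miR-18a seed (GCACCTT) at positions 618 to 624 of its 855-base 3′-UTR, and 5.49% of the 1603 genes with a 3′-UTR within 20% of that length held this motif. *Tfcp2l1* held 2 matches to the miR-19 seed (TTTGCAC) and 1 to the miR-92a seed (GTGCAAT). Among the 168 genes with a 3′-UTR of similar length, 82.1% held a match to at least 1 of the 4 seeds. *Aqp4* held none in 3955 bases, where 66.5% of 979 genes of similar length held at least 1. The motifs of miR-17 and miR-19 share letters and can overlap. Without a miR-17 match no such overlap could occur in these genes. The 3 matches in *Tfcp2l1* lay apart. The sites are printed with the match in capitals.
*Scnn1a*, miR-18a, chr6:125344706-125344712, forward strand, exon 12 of 12: gctcaaagGCACCTTtgcttttg
*Tfcp2l1*, miR-19, chr1:118680242-118680248, forward strand, exon 15 of 15: attggtatTTTGCACattggtat
*Tfcp2l1*, miR-92a, chr1:118683730-118683736, forward strand, exon 15 of 15: agtagaagGTGCAATcagaagtc
*Tfcp2l1*, miR-19, chr1:118685089-118685095, forward strand, exon 15 of 15: aagcatatTTTGCACttgtaaat

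**Figure D4:**
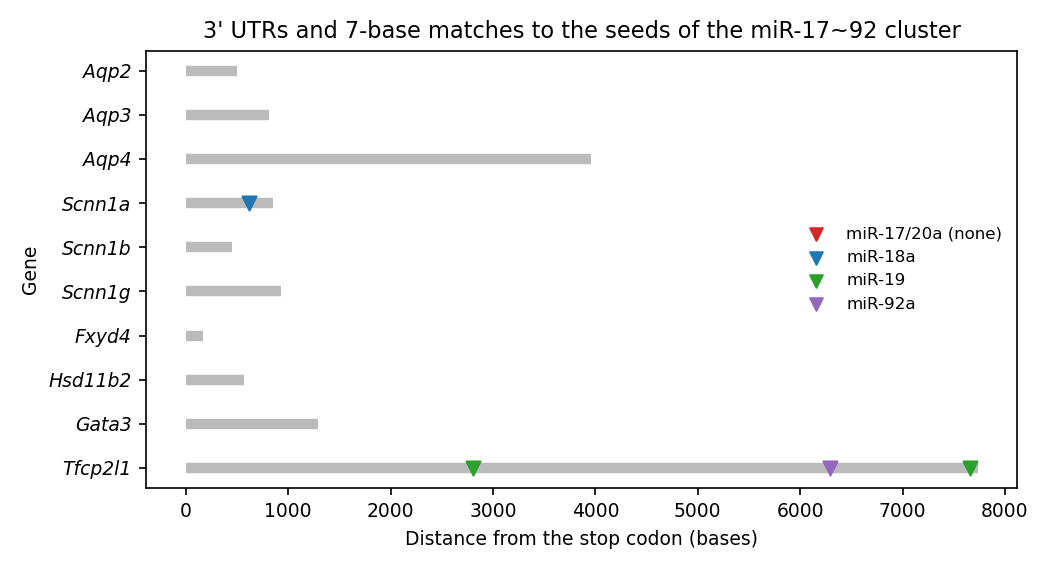
Annotated 3′-UTRs of the 10 principal cell genes as bars, drawn by distance from the stop codon in bases, with triangles at 7-base seed matches coloured by microRNA. *Tfcp2l1*, with 7734 bases, holds 3 of the 4 matches, *Scnn1a* holds the other, and no triangle for miR-17 or miR-20a appears.

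With a shorter match of 6 bases (to bases 2 to 7), 7 of the 10 genes held at least 1 match, beside 64.0% of all genes searched. *Scnn1g*, *Fxyd4* and *Hsd11b2* then still held none. *Aqp4*, which had no 7-base match, held 7 of the shorter matches. For miR-17 and miR-20a the 6-base motif (CACTTT) was present in 5 genes, beside 38.8% of all genes. A match is a description of the letters in this annotated 3′-UTR and not a measured binding site.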

How the data were processed

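Total RNA of 6 mouse kidneys (3 SKO, 3 DKO) had been made into strand-specific libraries. The authors trimmed single-end reads and aligned them to mm10 with TopHat2 2.0.12 and the iGenomes annotation. Per the labels, the authors also used Cufflinks, featureCounts, Subread 1.4.6 and edgeR 3.2.4, whose settings are not given in the sources used here. The deposited table gives, for each transcript, a log2 CPM that the authors' comparison averaged over libraries. Its other 4 columns hold the authors' own comparison of the genotypes (fold change, test statistic, p-value and adjusted p-value) and were not used. The planned count test between genotypes was not run, because no value per sample was at hand. Depth per library and the spread between kidneys are therefore unknown here. The lowest value, 0.0263 CPM, is shared by 4617 entries and was not read as a measured level.

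The log2 values were turned into CPM. A gene was represented by its highest entry and ranked among genes with at least 1 CPM. Lengths, 3′-UTRs and overlaps came from GENCODE M21 (GRCm38), through RefSeq accessions that matched for all 10 genes, and the longest matching transcript was taken. All 6 microRNAs matched RefSeq. Named genes are the 10 members with every entry, all genes of lists of up to 6, and otherwise the highest and lowest of a list, except for 2 genes that are not reported here. Cell type markers were listed with the lists. *Aqp6*, *Asic1*, *Gm23497* and *Gm13256* fall outside this rule and were named after their values were seen. Members and lists were chosen with earlier results of these data known. Scripts ran under Python 3.11.15 (pandas 2.3.3, numpy 2.4.6, matplotlib 3.10.9), and their functions were tested on made-up data.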

Additional observations from a re-analysis of the deposited data

How the results depend on the processing

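Since the entries of a gene lay within 1.15-fold of each other, choosing another entry could change little, whereas adding entries up did change the levels. The median level of the 10 genes, 6.13 on the log2 CPM scale, was 6.11 with the highest or the lowest RefSeq mRNA entry and 6.13 with the median over entries. With the sum over entries, an alternative chosen after seeing the data, it was 6.94, and the levels of 8 genes moved by over 1.5 times, the most for *Fxyd4*, by 6.35-fold. The median percentile among genes was 92.2, 95.6 with all gene symbols, 92.1 with genes that have a RefSeq mRNA and 87.4 with summed entries. With all gene symbols, *Scnn1g*, *Gata3* and *Fxyd4* moved by over 5 points, to percentiles 91.1, 87.5 and 78.8. With summed entries, *Fxyd4* moved from percentile 62.0 to 86.5, *Aqp3* from 93.1 to 78.8 and *Scnn1a* from 95.5 to 84.3, and the other 7 genes moved by under 5 points. Lengths averaged over RefSeq entries gave the same per-kilobase levels, because both RefSeq mRNAs of *Scnn1b* and of *Fxyd4* match a single GENCODE transcript. Genes with a seed match rose in number from 2 to 7 when 6 bases were enough. Other normalizations, a filter on low counts, DESeq2's test and leaving out each kidney were not run, since each needs values per sample. No paired analysis was possible because levels of single kidneys were not at hand and the labels carry animal numbers that no 2 kidneys share.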
